A study of Rattus norvegicus with 8 samples.

Results

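The endothelial cell genes are a list of 34 genes that the cells lining blood and lymph vessels are known to express, looked up by gene symbol in the tables of the series. A row was found for 33 of the 34 among the 32883 genes of the tables, and all 33 passed the filter on low counts that kept 13937 genes for testing. *Pecam1*, an adhesion molecule of endothelial junctions, had no row under its symbol and was not analysed here. The lookup used the gene symbols and no measured value, but the list was chosen with earlier results of these data known.

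Messenger RNA of the right Achilles tendon was sequenced in 8 wild-type, young adult male Sprague-Dawley (SD) rats, with 1 library per rat. The 4 rats of the 12 hours p.r. (post-running) group had run uphill on a treadmill for 1 hour, kept moving by airflow and a mild electric stimulus, and were killed after 12 hours of rest. The 4 naïve control (NC) rats stayed in their cages, did not run and were killed at the same time as the runners. Each library holds all cell types of the tendon tissue, with no sorting. Rats are numbered as in the sample labels, and equal numbers in the 2 groups belong to different rats.

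Endothelial cells line every vessel, hold each other through cadherin and claudin junctions, and read growth signals through receptors of the VEGF and angiopoietin families. Their identity is kept by transcription factors of the ETS family and of the SOX group F, while Notch signaling and connexins mark arteries and *Prox1* marks lymphatic vessels. Tendon is poor in vessels, which run mainly in its sheaths and between the fiber bundles. Since whole tendon was sequenced, fewer cells of a type and less RNA per cell cannot be told apart in any value given here.

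Of the 8 genes with the smallest unadjusted p, all under 0.05, 6 had an upstream region in RefSeq. To show the DNA ahead of the genes described first, 4 of these 6 were picked with their values known, the 3 whose groups did not overlap and the only one that was lower. The 250 bases upstream of their transcription starts are printed 5′ to 3′ on the strand of the gene, from RefSeq on the build GRCr8, which is a later build than the Rnor_6.0 genome used for counting. Capitals mark GGAAG, the core read by ETS factors such as *Erg* and *Fli1*, or its reverse complement CTTCC. The region of *Exoc3l2* is chr1:88241534-88241783 on the plus strand, that of *Egfl7* is chr3:29805381-29805630 on the plus strand, that of *Tie1* is chr5:137304982-137305231 on the minus strand, and that of *Emcn* is chr2:228564289-228564538 on the plus strand. The first 3 genes were higher at 12 hours p.r. and *Emcn* was lower.
Exoc3l2: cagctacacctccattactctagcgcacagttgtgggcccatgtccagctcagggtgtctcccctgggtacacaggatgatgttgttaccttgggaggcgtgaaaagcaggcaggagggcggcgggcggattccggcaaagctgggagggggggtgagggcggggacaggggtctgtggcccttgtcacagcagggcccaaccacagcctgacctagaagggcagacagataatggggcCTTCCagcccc
Egfl7: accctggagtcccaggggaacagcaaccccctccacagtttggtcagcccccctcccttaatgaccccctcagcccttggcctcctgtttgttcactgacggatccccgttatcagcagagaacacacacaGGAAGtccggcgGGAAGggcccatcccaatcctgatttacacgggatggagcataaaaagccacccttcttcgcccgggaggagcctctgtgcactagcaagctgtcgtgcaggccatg
Tie1: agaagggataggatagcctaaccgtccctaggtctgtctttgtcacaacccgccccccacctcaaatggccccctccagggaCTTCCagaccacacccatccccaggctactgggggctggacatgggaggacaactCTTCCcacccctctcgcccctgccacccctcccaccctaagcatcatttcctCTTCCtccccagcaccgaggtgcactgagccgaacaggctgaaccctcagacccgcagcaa
Emcn: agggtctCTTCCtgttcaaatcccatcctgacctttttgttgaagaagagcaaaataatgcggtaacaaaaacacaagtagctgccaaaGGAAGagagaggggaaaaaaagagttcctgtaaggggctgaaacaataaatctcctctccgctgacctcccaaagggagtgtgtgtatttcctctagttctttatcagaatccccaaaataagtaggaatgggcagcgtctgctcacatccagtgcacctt

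The core stood once ahead of *Exoc3l2*, at 2 places ahead of *Egfl7* and *Emcn*, and at 3 places ahead of *Tie1*. RefSeq gave the upstream region of 21 of the 34 genes, and 18 of these 21 (85.7%) held the core on either strand, against 63.3% of all 27457 rat promoters of the same length. The joint FOX and ETS sequence AACAGGAA, which overlaps the ETS core when a G follows it, was found in 1 of the 21 (4.76%), that of *Emcn*, against 2.09% of all promoters. The KLF sequence CACCC stood in 13 (61.9%, against 49.4%), the SOX sequence ACAAT in 6 (28.6%, against 29.6%) and the GATA sequence AGATAA in 2 of the 21, against 2759 of the 27457. The 21 regions had a median GC content of 59.2%, against 52.0% in all promoters, and these shares are descriptions of letters without a test.

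Between 7350509 and 12951397 reads were counted on genes per rat, and each member of the list had at least 13 reads in every rat. The smallest sum over the 8 rats was 330 reads (*Robo4*) and the largest 35886 reads (*Plvap*), so the counting error is largest for *Robo4* and *Prox1* (1066 reads). The library of 12 hours p.r. rat 3 stood apart, since 9 fast skeletal muscle genes summed to 62169 CPM in it and to between 1341 and 11060 CPM in the other 7 rats. CPM are read counts per 1e6 reads, after the size of each library is adjusted by a TMM (trimmed mean of M values) factor. Tendon genes were present throughout, with 12 tenocyte markers summing to between 26401 and 65639 CPM, while the 33 endothelial genes summed to between 3549 and 4461 CPM. Of the 12 markers, 3 were higher at 12 hours p.r. at an unadjusted p under 0.05 (*Mkx*, *Scx* and *Thbs4*) and 0 were lower, against 5.44% and 4.08% of all genes tested. The study named *Thbs4* in its process lists, drawn from these same libraries, so that gene is not independent evidence.

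Levels of different genes were compared as FPKM, counts divided by gene length and by a size factor of each rat. *Plvap*, a protein of the diaphragms that close the pores and pits of capillary cells, was the most abundant member, with 256 ± 46.8 FPKM at 12 hours p.r. and 193 ± 13.3 FPKM in the NC group (means ± SD, n = 4). *Emcn*, a mucin on the surface of capillary and venous cells, followed with 146 ± 24.6 and 193 ± 28.0 FPKM, and the 2 genes had overlapping levels within the NC group. *Cldn5*, the claudin of endothelial tight junctions, had 126 ± 28.7 and 97.9 ± 14.4 FPKM, and the secreted vessel protein *Egfl7* had 115 ± 6.47 and 87.6 ± 6.85 FPKM. These 2 also overlapped in both groups. *Esam*, an adhesion molecule of endothelial tight junctions, had 70.5 ± 7.66 and 62.3 ± 6.32 FPKM, and did not overlap *Egfl7* in either group.

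**Figure D1:**
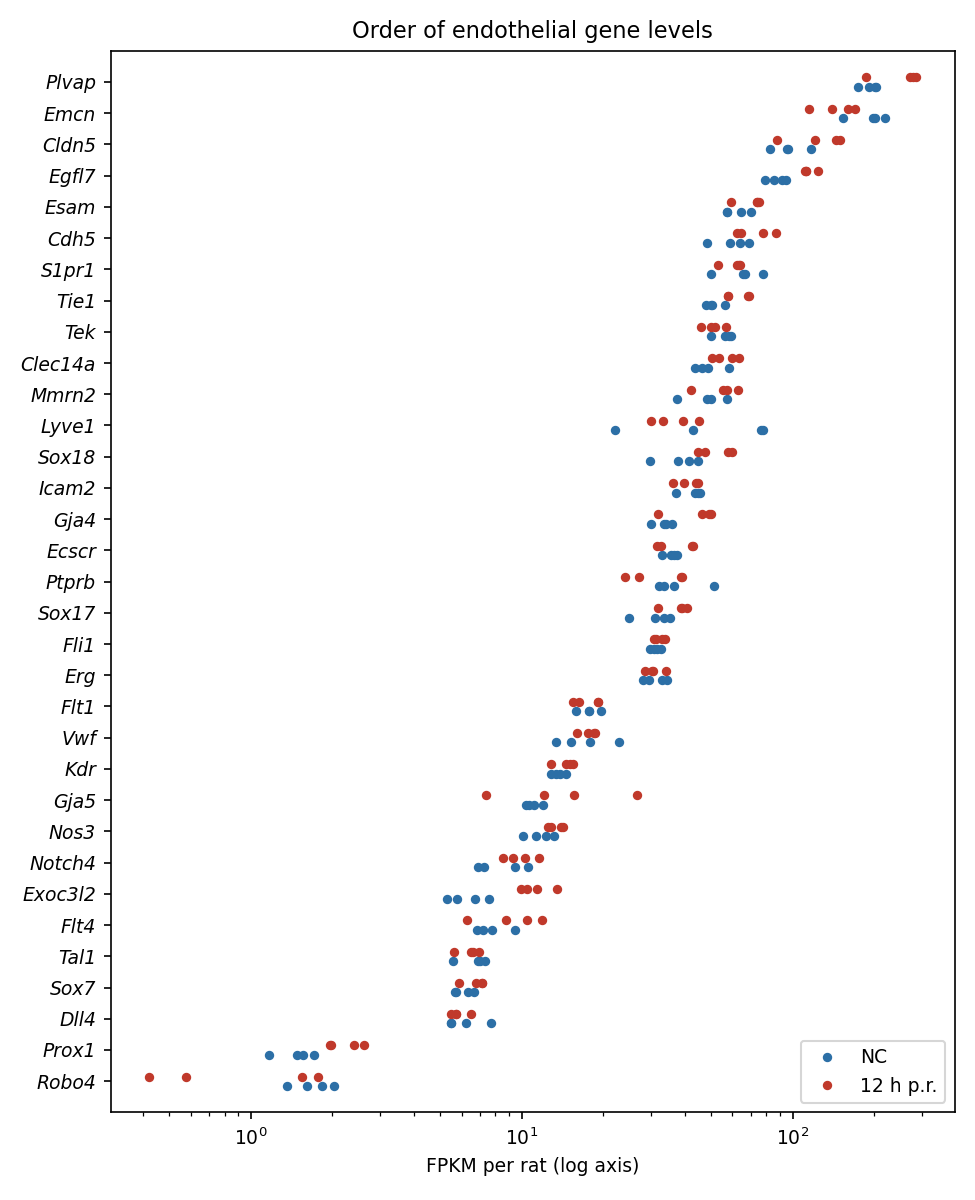
Level of each of the 33 endothelial genes in each rat, in FPKM on a log axis, ordered by the mean over the 8 rats, with NC rats in blue and 12 h p.r. rats in red. *Plvap* leads with means of 256 and 193 FPKM in the running and NC groups, and *Robo4* is lowest with 1.08 and 1.71 FPKM.

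Below these genes, neighbors in the order overlapped over the 8 rats, except between *Erg* and *Flt1* and between *Dll4* and *Prox1*. In all, 11 genes had a mean above 50 FPKM over the 8 rats, 25 were above 10 FPKM, and 8 were below 10 FPKM. The lowest were *Dll4*, the Notch ligand of arterial and sprouting cells, with 5.85 ± 0.445 and 6.24 ± 1.04 FPKM, *Prox1* with 2.24 ± 0.327 and 1.48 ± 0.231 FPKM, and *Robo4*, a guidance receptor that steadies vessels, with 1.08 ± 0.678 and 1.71 ± 0.289 FPKM. *Kdr*, the main VEGF receptor, lay lower (14.4 ± 1.16 and 13.7 ± 0.738 FPKM) than the angiopoietin receptor *Tek* (51.0 ± 4.45 and 55.8 ± 4.13 FPKM), and their ranges over rats did not overlap. Per length, the 5 genes at the top held 44.7% of the summed FPKM of the list in the NC group and 46.0% at 12 hours p.r.

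To find out which endothelial genes differed after the run, the 12 hours p.r. and NC counts of all 13937 genes were fitted and tested by the quasi-likelihood method of edgeR, and p-values were adjusted over all of them by Benjamini-Hochberg. A log2 fold change is that of 12 hours p.r. against NC, so that values above 0 mean a higher level after running. Of the 33 genes, 22 had a log2 fold change above 0 and 11 below 0, as did 7557 and 6380 of all genes tested. With an adjusted p under 0.05, edgeR called 0 of them (lowest adjusted p, 0.309), when 0.00718% of all genes passed. Limma on log2(FPKM + 1) also called 0, and DESeq2 called 2, *Exoc3l2* and *Egfl7* (6.06% of the list, against 0.699% of all genes with an adjusted p from DESeq2). Without adjustment, 7 genes were higher with p under 0.05 (21.2%, against 5.44% of all genes) and 1 was lower (3.03%, against 4.08%). In 5 genes (15.2%, against 3.52% of all genes) every running rat was above every NC rat, and in 0 genes was every running rat below every NC rat, which held for 2.55% of all genes. The median log2 fold change was 0.18 over the list and 0.02 over all genes tested, and 0 members differed by a fold of 2 or more. Since the list was chosen with earlier results of these data known, the shares set beside those of all genes are descriptions and not a test.

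**Figure D2:**
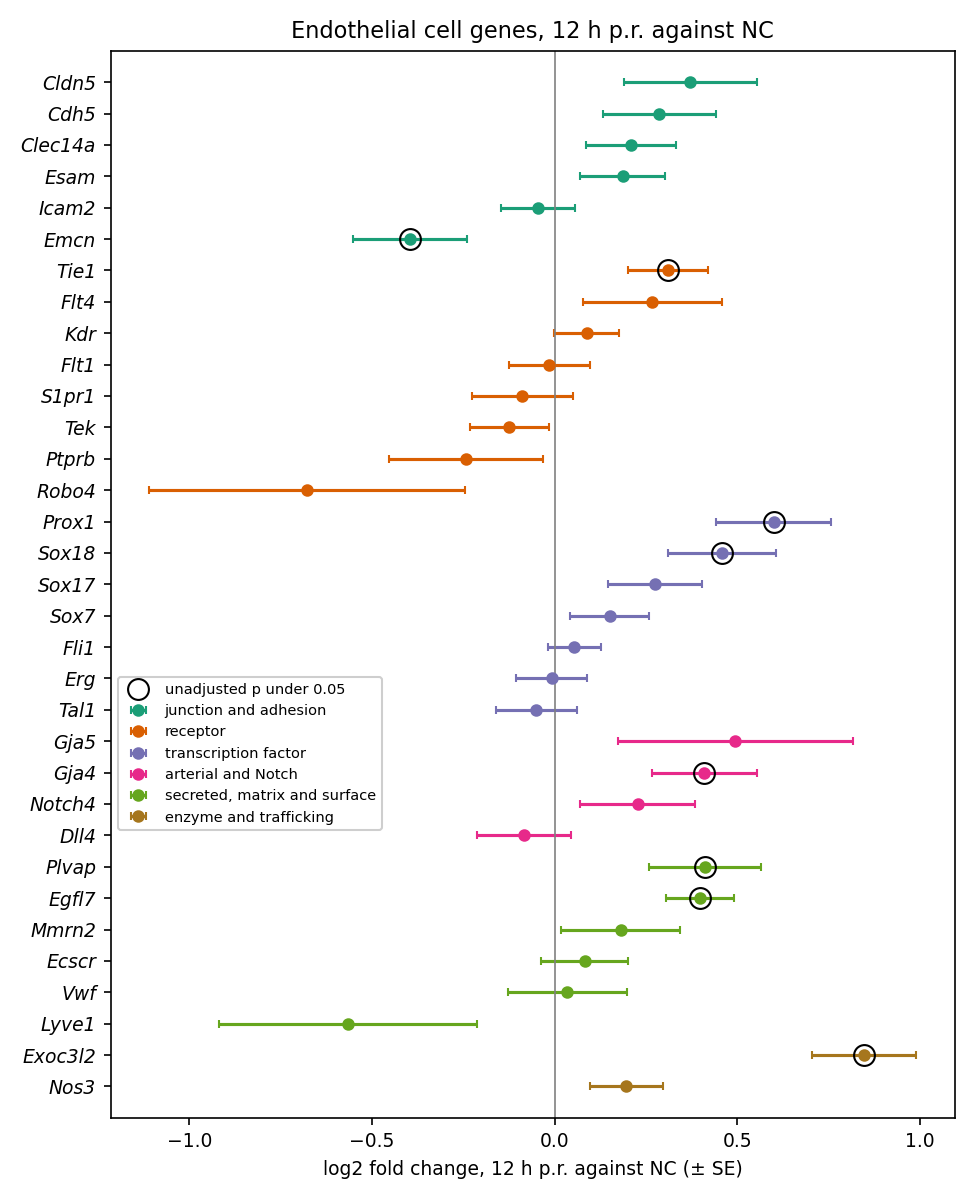
Log2 fold change of 12 h p.r. against NC for each of the 33 endothelial genes, as points with bars of 1 standard error (SE), colored by role, with rings on the 8 genes with an unadjusted p under 0.05. Ringed genes run from *Exoc3l2* at 0.85 to *Emcn* at −0.40, and the widest bars belong to *Robo4*, *Lyve1* and *Gja5*.

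The largest difference was that of *Exoc3l2*, a relative of an exocyst subunit that takes part in carrying VEGF receptors to the surface of endothelial cells. It had 30.5, 28.9, 33.1 and 39.1 CPM in the running rats 1 to 4 and 19.4, 21.8, 15.4 and 16.7 CPM in the NC rats 1 to 4. Every running rat was thus above every NC rat. The log2 fold change was 0.85 ± 0.14 (SE), with an adjusted p of 0.309 by edgeR and 0.000613 by DESeq2. An exact permutation test over the rats gave 0.0286 (2-sided), the smallest p that 4 against 4 can give. Groups without overlap always give this value, so here and below it only restates the lack of overlap. *Nos3*, the endothelial nitric oxide synthase, is the other gene grouped here under enzyme and trafficking. It ranged from 67.6 to 77.3 CPM in the running rats and from 54.8 to 71.1 CPM in the NC rats, with a log2 fold change of 0.20 ± 0.10 and an adjusted p of 0.575 by edgeR.

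Among secreted, matrix and surface proteins, *Egfl7* and *Plvap* were higher. *Egfl7*, which endothelial cells lay into their matrix as vessels form, had 165, 164, 182 and 163 CPM in the running rats and 133, 138, 115 and 125 CPM in the NC rats. The groups did not overlap, and running rats 1, 2 and 4 lay close together. Its log2 fold change was 0.40 ± 0.09, with an adjusted p of 0.392 by edgeR and 0.0119 by DESeq2, and the exact permutation p was 0.0286. *Plvap* had 554, 376, 560.0 and 578 CPM in the running rats and 405, 352, 388 and 410.1 CPM in the NC rats. Rat 2 of the running group stood with the controls, while the other 3 runners were above every NC rat. The log2 fold change of *Plvap* was 0.41 ± 0.15 (adjusted p of 0.477 by edgeR), and the exact permutation p was 0.114.

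The other 4 genes of this kind stayed above an unadjusted p of 0.05. *Vwf*, the clotting protein stored in endothelial granules, averaged 157 ± 11.3 CPM at 12 hours p.r. and 154 ± 36.8 CPM in the NC group (log2 fold change, 0.03 ± 0.16), with the highest and the lowest value both in NC rats. *Mmrn2*, a matrix protein that binds *Clec14a*, had a log2 fold change of 0.18 ± 0.16 (0.08 without rat NC 1), and *Ecscr*, a surface regulator of endothelial movement, one of 0.08 ± 0.12 (0.01 without running rat 4). *Lyve1*, a hyaluronan receptor of lymphatic vessels that macrophages also express, was the most uneven of the list in the NC group.

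*Lyve1* had 104, 122, 92.8 and 140.3 CPM in the running rats and 241, 68.7, 133 and 237 CPM in the NC rats. Rats NC 1 and NC 4 were above all runners and rat NC 2 was below them all, and the log2 fold change was −0.57 ± 0.35 (exact permutation p, 0.400). It moved from −0.35 without rat NC 1 to −0.83 without rat NC 2, where its unadjusted edgeR p was 0.00738. The mean log2 CPM of 10 leukocyte genes was lowest in its group in the same 2 rats as *Lyve1*, with 4.48 in 12 hours p.r. rat 3 and 4.70 in rat NC 2. In the NC group both were also highest in the same rat, NC 1 (leukocyte mean, 5.97). Among the runners the leukocyte mean was highest in rat 2 (5.87), but *Lyve1* in rat 4. The part of leukocytes in the *Lyve1* level was not tested.

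**Figure D3:**
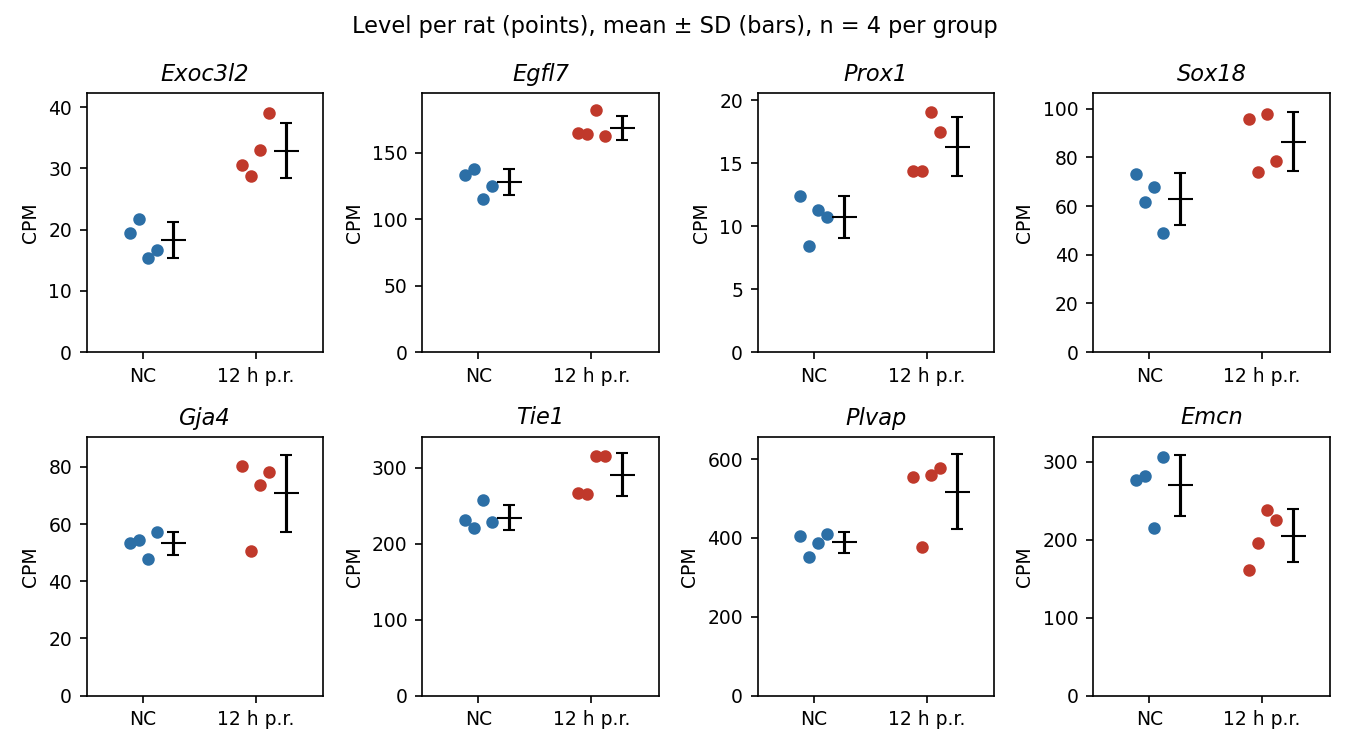
CPM in each rat for the 8 endothelial genes with an unadjusted p under 0.05, as points beside the mean ± SD (n = 4 per group), on axes that start at 0. The groups are apart for *Exoc3l2*, *Egfl7*, *Prox1*, *Sox18* and *Tie1*, while 1 running rat lies among the controls for *Gja4* (50.7 CPM) and *Plvap* (376 CPM), and *Emcn* is lower after running with overlap.

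Of the 7 transcription factors, *Prox1* and *Sox18* were higher, and both act in lymphatic vessels, where SOX18 switches on *Prox1*. *Prox1* had 14.4, 14.4, 19.0 and 17.5 CPM in the running rats and 12.4, 8.46, 11.3 and 10.7 CPM in the NC rats, with no overlap between the groups. Its log2 fold change was 0.60 ± 0.16, with an adjusted p of 0.422 by edgeR and an exact permutation p of 0.0286. *Sox18* had 95.8, 73.8, 97.9 and 78.3 CPM in the running rats and 73.3, 61.7, 67.9 and 48.8 CPM in the NC rats. Its groups were also apart, but by less than 1 CPM between running rat 2 and rat NC 1, and the log2 fold change was 0.46 ± 0.15 (adjusted p of 0.433 by edgeR, exact permutation p of 0.0286).

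The relatives of *Sox18* in group F lay in the same direction with smaller values that overlapped between the groups. *Sox17*, which acts mainly in arteries, had a log2 fold change of 0.28 ± 0.13 (adjusted p of 0.544 by edgeR), and *Sox7* had one of 0.15 ± 0.11. The ETS factors *Erg* and *Fli1*, which keep endothelial genes active, were close to 0, with −0.01 ± 0.10 and 0.05 ± 0.07, and so was *Tal1*, a factor of blood and endothelial progenitors, with −0.05 ± 0.11. *Fli1* was the most even gene of the list between rats, at 54.1 to 61.6 CPM over all 8 of them.

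Among receptors only *Tie1* had an unadjusted p under 0.05. *Tie1*, the partner of *Tek* without a ligand of its own, had 267, 266, 316 and 315 CPM in the running rats and 232, 221, 258 and 229 CPM in the NC rats. All runners were above all controls, and the log2 fold change was 0.31 ± 0.11 (adjusted p of 0.452 by edgeR, exact permutation p of 0.0286). *Tek* itself had a log2 fold change of −0.12 ± 0.11, with 234 ± 21.2 CPM at 12 hours p.r. and 255 ± 18.9 CPM in the NC group. The ratio of *Tie1* to *Tek* in FPKM, picked after the values were seen and not tested, was 1.02, 1.26, 1.38 and 1.33 in the running rats and 0.901, 0.964, 0.951 and 0.858 in the NC rats. It was above 1 in every runner and below 1 in every control, but it sets a gene seen above 0 against one seen below 0 and is no further finding. Of other ratios computed, *Sox18* to *Sox17* overlapped, at 1.23 to 1.53 in the running rats and 0.888 to 1.66 in the NC rats. That of *Egfl7* to *Fli1* was apart, at 3.38 to 3.69 and 2.42 to 3.07. It sets a gene whose groups were already apart over one with little difference, was not tested and is no further finding. *Ptprb*, the phosphatase that acts on *Tek* and VE-cadherin, had a log2 fold change of −0.24 ± 0.21, which was −0.07 without rat NC 4.

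The 3 VEGF receptors showed no such difference. *Kdr* had 96.4, 81.5, 98.1 and 92.5 CPM in the running rats and 87.6, 92.7, 85.0 and 81.6 CPM in the NC rats, and running rat 2 and rat NC 4 had the lowest levels. Its log2 fold change was 0.09 ± 0.09 (adjusted p of 0.783 by edgeR, exact permutation p of 0.343). *Flt1*, which binds VEGF without much signaling, had a log2 fold change of −0.01 ± 0.11, and *Flt4*, the VEGF-C receptor of lymphatic vessels, one of 0.27 ± 0.19 (0.13 without running rat 3 and 0.42 without running rat 2). *S1pr1*, the receptor through which sphingosine 1-phosphate tightens vessels, had −0.09 ± 0.14. *Robo4* had 5.18, 4.48, 1.67 and 1.22 CPM in the running rats and 5.29, 3.92, 4.68 and 5.86 CPM in the NC rats. Running rats 3 and 4 were below all controls and rats 1 and 2 were among them, and the log2 fold change of −0.68 ± 0.43 (adjusted p of 0.655 by edgeR) rests on the fewest reads of the list. It was −1.04 without running rat 1, with an unadjusted edgeR p of 0.0436, and −0.40 without running rat 4.

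*Emcn* was the only member that was lower with an unadjusted p under 0.05. It had 161, 196, 237 and 225 CPM in the running rats and 276, 282, 214 and 305 CPM in the NC rats. Rat NC 3 lay between the runners, and the other 3 controls were above all of them, with a log2 fold change of −0.40 ± 0.16 (adjusted p of 0.488 by edgeR, exact permutation p of 0.0857). The unadjusted edgeR p was above 0.05 when any of 5 single rats was left out, reaching 0.0865 without rat NC 4. The 2 most abundant genes thus had log2 fold changes of opposite sign, neither with an adjusted p under 0.05 by edgeR or DESeq2. Their FPKM ratio, *Plvap* to *Emcn*, also picked after the values were seen, was 2.38, 1.33, 1.63 and 1.78 in the running rats and 1.02, 0.864, 1.25 and 0.930 in the NC rats, so that the lowest runner was just above the highest control.

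The other junction and adhesion genes were above 0 except *Icam2*. *Cdh5*, VE-cadherin of the adherens junction and the gene that defines the cell type most strictly, had 317, 252, 351 and 260.4 CPM in the running rats and 194, 259, 237 and 278 CPM in the NC rats. The groups overlapped, with a log2 fold change of 0.29 ± 0.15 (adjusted p of 0.589 by edgeR, exact permutation p of 0.171). *Cldn5* had 209.5, 125, 174 and 215 CPM in the running rats and 167, 137, 118 and 138 CPM in the NC rats. Running rat 2 was again among the controls, and the log2 fold change was 0.37 ± 0.18 (adjusted p of 0.559 by edgeR, exact permutation p of 0.171). *Esam* had 151, 120.1, 150.4 and 153 CPM in the running rats and 116, 130.5, 116 and 142 CPM in the NC rats, a log2 fold change of 0.19 ± 0.12. *Clec14a*, an endothelial lectin, had a log2 fold change of 0.21 ± 0.12, and *Icam2*, a ligand of leukocyte integrins, one of −0.04 ± 0.10.

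Of the 4 arterial and Notch genes, *Gja4*, a connexin of arterial gap junctions, had 80.2, 50.7, 73.5 and 78.3 CPM in the running rats and 53.5, 54.5, 47.7 and 57.3 CPM in the NC rats. Running rat 2 was inside the control range and the other runners were above it, with a log2 fold change of 0.41 ± 0.14 (adjusted p of 0.452 by edgeR, exact permutation p of 0.114). The related connexin *Gja5* had 83.3, 22.9, 37.4 and 48.3 CPM in the running rats, against 34.3, 36.9, 32.1 and 33.0 CPM in the NC rats. The runners thus held both the highest and the lowest level, and the log2 fold change of 0.49 ± 0.32 was 0.09 without running rat 1. The receptor *Notch4* had a log2 fold change of 0.23 ± 0.16 (0.14 without running rat 1). *Dll4* had 30.0, 26.2, 25.1 and 26.2 CPM in the running rats and 28.5, 35.3, 25.2 and 25.2 CPM in the NC rats, a log2 fold change of −0.08 ± 0.13.

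By role, the median log2 fold change was 0.52 for the 2 enzyme and trafficking genes, 0.32 for the 4 arterial and Notch genes, 0.20 for the 6 junction and adhesion genes, 0.15 for the 7 transcription factors, 0.13 for the 6 secreted, matrix and surface genes and −0.05 for the 8 receptors. The 25 genes with an unadjusted p of 0.05 or more lay between −0.68 and 0.49, with a median of 0.08 and adjusted p-values from 0.544 to 0.988 by edgeR. Of all 33 genes, 10 lay within 1 SE of 0. Of the 8 genes with an unadjusted p under 0.05, 6 (*Egfl7*, *Emcn*, *Plvap*, *Prox1*, *Sox18* and *Tie1*) were named by the study in its process lists, which it drew from these same libraries, so those are not independent evidence. Of the 27 members not named there, 2 were higher (*Exoc3l2* and *Gja4*, 7.41%) and 0 were lower at an unadjusted p under 0.05. All 6 named members had passed that cutoff, whereas the 5.44% of all genes that were higher keeps the genes named by the study. These shares are of unlike sets and cannot be compared.

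Rats differed among themselves in the level of the whole list. The summed FPKM of the 33 genes was 1587, 1309, 1660.4 and 1639 in the running rats and 1444, 1388, 1317 and 1518 in the NC rats. Running rat 2 had the lowest sum of all and the other 3 runners the highest, so that the groups overlapped, with means of 1549 ± 163 and 1417 ± 85.3. It had the highest level of the 8 rats for 0 genes and the lowest for 7, among them *Kdr*, *Tek* and *Flt1*, while rat 3 of the same group had the highest level for 9. In the NC group, rat 3 had the lowest level for 10 genes. The list took between 0.361 and 0.447% of the reads of a rat.

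**Figure D4:**
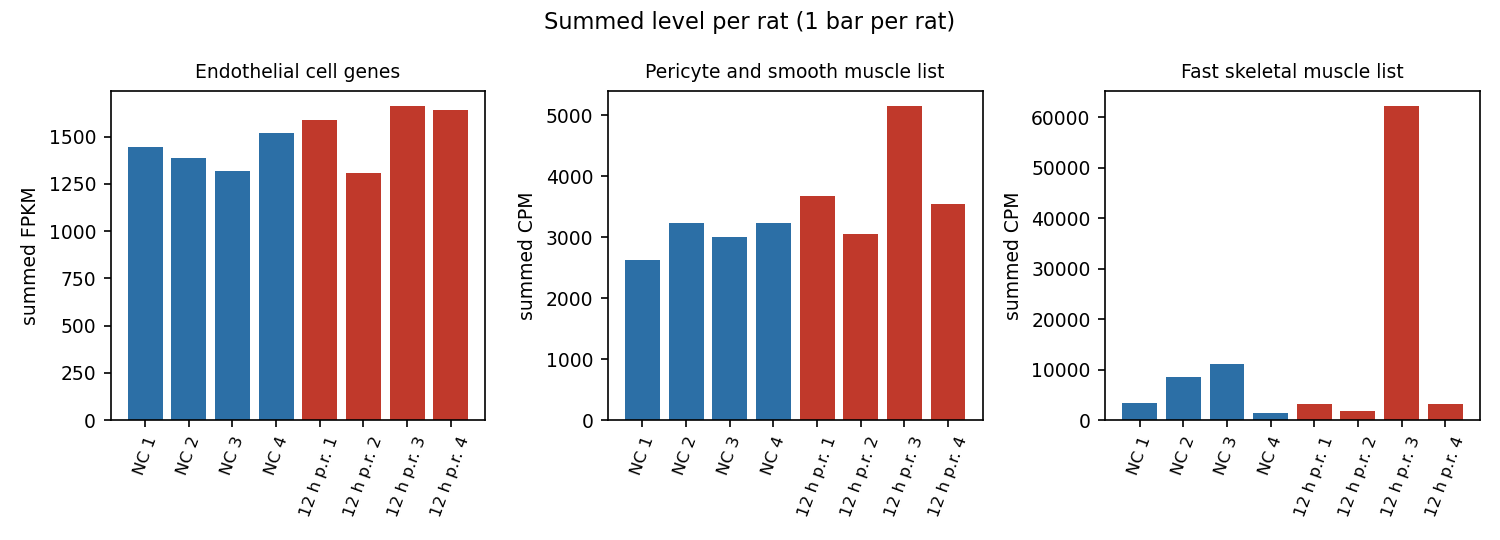
Summed level in each rat of the endothelial genes (FPKM), of the pericyte and smooth muscle list (CPM) and of the fast skeletal muscle list (CPM), with 1 bar per rat, NC in blue and 12 h p.r. in red. Running rat 2 has the lowest endothelial sum (1309 FPKM), and running rat 3 has the highest muscle sum (62169 CPM).

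When each gene was taken as its share of the summed FPKM of the list, which sets aside the total level in a rat, *Plvap* took 16.4 ± 1.49% at 12 hours p.r. and 13.6 ± 0.858% in the NC group (n = 4). *Emcn* took 9.49 ± 1.55% and 13.6 ± 1.34%, *Cldn5* took 8.08 ± 1.27% and 6.90 ± 0.853%, and *Egfl7* took 7.47 ± 0.785% and 6.19 ± 0.498%. *Exoc3l2* took 0.732% and 0.448%. The shares of the list are tied to each other by their fixed sum and were not tested.

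**Figure D5:**
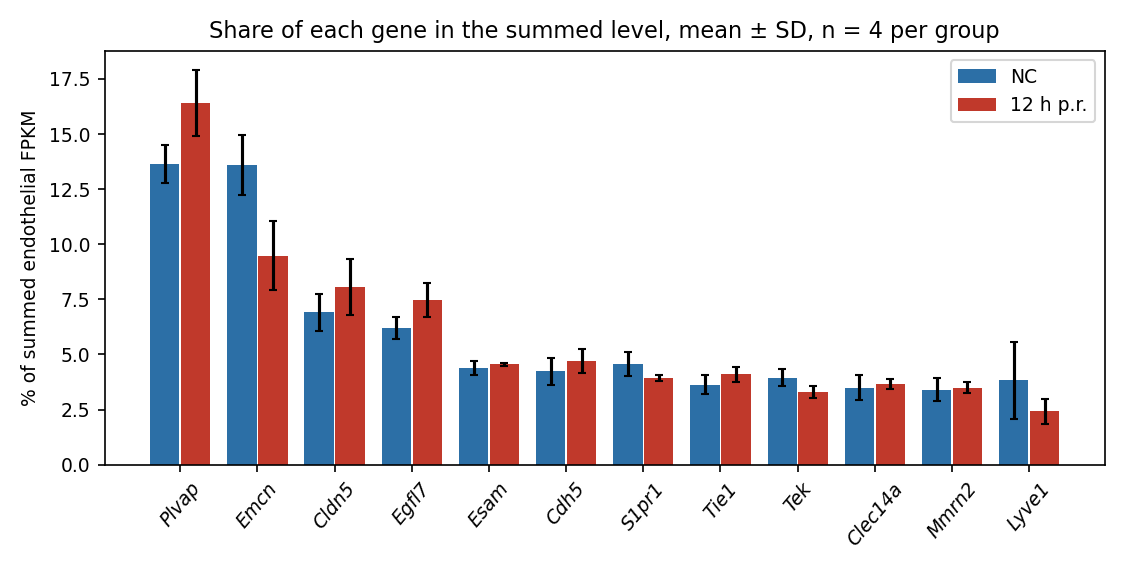
Share of the summed endothelial FPKM taken by each of the 12 most abundant genes, as bars of the group mean with SD (n = 4), NC in blue and 12 h p.r. in red. The share of *Plvap* is higher after running (16.4 against 13.6%) and that of *Emcn* lower (9.49 against 13.6%), and the remaining bars differ less.

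Leaving out the muscle-rich library of running rat 3 kept the count at 7 higher and 1 lower with an unadjusted p under 0.05, with a median log2 fold change of 0.122, and a muscle score as a covariate gave 7 and 1 with a median of 0.158. Of 9 fast skeletal muscle genes, 0 were higher or lower at an unadjusted p under 0.05 (median log2 fold change, 1.49). Of 6 slow muscle genes 2 were lower, against 4.08% of all genes, *Atp2a2* and *Myl2* (median, −1.85), the latter at 0 reads in running rat 1. *Atp2a2* was named by the study from these same libraries and is not independent evidence. The slow muscle genes summed to between 233 and 1674 CPM in the running rats and between 1007 and 2665 CPM in the NC rats. Of 10 leukocyte genes 0 passed in either direction (median, −0.28), with sums of 278 to 743 CPM after running and 347 to 838 CPM in the NC group.

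Genes of the cells around the vessels were also measured. All 16 pericyte and smooth muscle genes had a log2 fold change above 0 (median, 0.26), as did 7557 of all 13937 genes tested. At an unadjusted p under 0.05, 3 were higher, against 5.44% of all genes, *Ndufa4l2* (0.65 ± 0.20), *Smtn* (0.37 ± 0.13) and *Tagln* (0.34 ± 0.15). The 16 genes summed to 3674, 3057, 5147 and 3549 CPM in the running rats and 2630, 3232, 3010 and 3237 CPM in the NC rats, and running rat 2 was again the runner with the lowest sum. The highest sum was that of running rat 3, the library with the most skeletal muscle RNA. The part of skeletal muscle RNA in the values of this list was not tested. Nor was the part of pericytes and smooth muscle cells in the endothelial values.

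A second list of 49 tested endothelial genes, chosen like the first with results of these data known, was divided. Of these, 11 were higher and 9 were lower at an unadjusted p under 0.05, against 5.44% and 4.08% of all genes tested. The median log2 fold change was −0.02. The higher ones with the smallest p were *Sox13*, a SOX factor (58.7 against 41.5 CPM, 0.50 ± 0.11), *Eng*, endoglin, the coreceptor for BMP and TGF-β ligands (287 against 203 CPM, 0.50 ± 0.11), and *Elk3*, an ETS factor (180 against 138 CPM, 0.38 ± 0.09). All of these were higher in every runner than in every control. Their adjusted p was 0.385 each by edgeR, and 0.034, 0.00662 and 0.00672 by DESeq2. At an adjusted p under 0.05, edgeR called 0 of the 49 genes, against 0.00718% of all genes. DESeq2 called 3, the same genes, against 0.699% of all genes with an adjusted p from DESeq2. The lower ones with the smallest p were *Rgcc* (−0.50 ± 0.13), *Esm1*, a secreted product of sprouting tip cells (−1.13 ± 0.33), and *Thbd*, thrombomodulin (−0.46 ± 0.14). By exact symbol, 12 genes of this list were named by the study from these libraries, 10 of them with an unadjusted p under 0.05. Of the other 37, 6 were higher (16.2%) and 4 lower (10.8%). One of the 4 is *Calcrl*, which the study may have named too, since its list as read here holds Calcr1. The shares over all genes keep the named genes, so they cannot be compared with these.

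Among 17 arterial, venous and capillary markers outside the list, 3 were higher at an unadjusted p under 0.05, against 5.44% of all genes. These were the Notch ligand *Jag2* (0.60 ± 0.14, adjusted p of 0.0286 by DESeq2), the venous receptor *Ephb4* (0.37 ± 0.14) and P-selectin *Selp* (0.42 ± 0.17). Against 4.08% of all genes, 2 were lower, *Fbln5* (−0.41 ± 0.11) and *Rgcc*, which is in both lists. At an adjusted p under 0.05, edgeR called 0 of the 17, against 0.00718% of all genes. DESeq2 called 1, *Jag2*, against 0.699% of all genes with an adjusted p from DESeq2. The study named *Ephb4*, *Selp* and *Rgcc* from these same libraries, so those are not independent evidence. Of 10 lymphatic genes, *Lyve1*, *Flt4* and *Prox1* included, 1 was higher, which was *Prox1* itself, and the 7 that are not members gave 0 in either direction, with a median of 0.09. Among 19 ligands and coreceptors of the receptors, *Vash1*, an inhibitor of vessel growth (0.60 ± 0.18), and *Sphk2* (0.31 ± 0.10) were higher, against 5.44% of all genes. *Sphk1*, a kinase that makes the ligand of *S1pr1*, was lower (1.53 against 5.71 CPM, −1.89 ± 0.31, adjusted p of 0.301 by edgeR and 0.000678 by DESeq2). *Vash1* and *Sphk1* were likewise named by the study from these libraries. Ligands of the VEGF and TIE receptors overlapped between the groups, with *Vegfa* at 87.2 ± 16.3 and 95.1 ± 36.3 CPM, *Angpt1* at 12.1 ± 3.02 and 10.1 ± 1.76 CPM, and *Angpt2* at 84.2 ± 7.47 and 102 ± 16.3 CPM.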

How the data were processed

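RNA-seq of the right Achilles tendon was analyzed for 4 rats of the 12 hours p.r. group and 4 NC rats, grouped by their labels. The authors aligned reads of stranded libraries to Rnor_6.0 with HISAT2 2.1.0, counted them per gene with featureCounts 1.6.3 and deposited unnormalized counts. Whether the counting used the strand or reads matching several genes is not given in the sources used here. The authors also deposited FPKM values, whose factors per rat matched DESeq2 size factors computed from the counts. The authors' comparison table (DESeq2 1.30.1; fold changes and p-values) was not used.

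Counts were filtered with filterByExpr, scaled by TMM and tested with the quasi-likelihood test of edgeR 4.0.16 with Benjamini-Hochberg adjustment over 13937 genes. The SE was computed from the quasi-likelihood F statistic. Exact 2-sided permutation tests used log2(CPM + 0.5) over 70 regroupings. Alternatives were DESeq2 1.42.0, limma 3.58.1 on log2(FPKM + 1) and log2(FPKM + 0.1), other scalings and filters, a replicate block, a muscle covariate, robust estimation and leaving out each rat. R 4.3.3 and Python 3.11.15 were used, and the fits were tested on simulated data.

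The members and the gene lists were chosen with earlier results of these data known. Members are given in every rat if they had an unadjusted p under 0.05, groups without overlap, a DESeq2 call, one of the 5 highest or 3 lowest mean FPKM, or are *Cdh5*, *Kdr*, *Lyve1* or *Prox1*. *Gja5* was added after its values were seen. Other lists are given by up to 3 genes in each direction with the smallest unadjusted p under 0.05, and *Vegfa*, *Angpt1* and *Angpt2*. P-values measure the spread between single rats, 1 library each.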

Additional observations from a re-analysis of the deposited data

Results flagged for a closer look

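In 3 of the 68 sets of 4 values examined (33 genes and the summed level, in each group), 1 rat lay far from the other 3 of its group by Dixon's criterion, when chance gives about 3.4. *Esam* was low in 12 hours p.r. rat 2, with 120 CPM against 150.4 to 153 CPM in the other runners. *Plvap* was low in the same rat, with 376 CPM against 554 to 578 CPM. *Egfl7* was high in 12 hours p.r. rat 3, with 182 CPM against 163 to 165 CPM, in the library that also held the most skeletal muscle RNA.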

How the results depend on the processing

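DESeq2 called 2 members at an adjusted p under 0.05, and edgeR and limma under every other setting called 0. The count of higher members at an unadjusted p under 0.05 was 7 in each of the 10 settings other than leaving out a rat, with the same genes, and ran from 4 (without 12 hours p.r. rat 4) to 12 (without 12 hours p.r. rat 2). Without that rat *Flt4*, *Esam*, *Sox17*, *Cldn5* and *Gja5* came in, without NC 1 *Cldn5* (p of 0.0421 by edgeR), and without NC 2 *Sox17* (0.036), *Nos3* (0.0348) and *Clec14a* (0.0321). *Exoc3l2*, *Egfl7*, *Prox1* and *Sox18* passed in all 8 fits that left out a rat, *Tie1* in 6, *Gja4* in 5, *Plvap* in 4 and *Emcn* in 3. The count of lower members was 0 or 1 on leaving out a rat (0 without 12 hours p.r. rat 2, NC 1 or NC 4), but without 12 hours p.r. rat 1 that member was *Robo4* (−1.04, p of 0.0436 by edgeR) and without NC 2 it was *Lyve1* (−0.83, 0.00738), with *Emcn* lost in both. Deviations from the group means had correlations of 0.07, −0.20, 0.13 and 0.09 between same-numbered rats. These were not set beside those of differently numbered rats, so whether the numbers pair the rats was not tested. With the replicate number as a block, the count of lower members was 0, the p of *Emcn* being 0.063 by edgeR, and that of higher members was 7. Leaving out 1 rat moved the log2 fold change of 20 members by over 1.5 times, 0 of them among the 8 with an unadjusted p under 0.05. The median log2 fold change of the members ran from 0.118 to 0.214 without single rats. Of 594 values of single members 13 changed sign, and 26 members never did. *Erg* turned to 0.000313 with the muscle covariate. Without single rats, *Flt1* ran from −0.06576 to 0.0389, *Erg* from −0.05989 to 0.03837, *Icam2* from −0.1064 to 0.01153, *Tal1* from −0.131 to 0.005725, *Vwf* from −0.07007 to 0.1966, *Dll4* from −0.143 to 0.03122 and *S1pr1* from −0.1956 to 0.005911. The cause of these changes was not tested. Depth limits *Robo4* and *Prox1* most.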
